A study of Mus musculus with 4 samples.

Results

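Expression of 39 genes for nuclear receptors and their coregulators was followed in adipocytes of the mouse line 3T3-L1, whose fibroblast-like cells turn into fat cells in culture. The genes were chosen by name from the array's design, as the 39 listed genes of 34795 in all. The rule itself used no signal value, but the list was drawn up with earlier results of these data known. They comprise 35 receptors, without PPAR gamma, the liver X receptors and the sex steroid receptors, and 4 coregulators. The cells were labelled as adipocytes and came as 4 groups of 1 sample each. One group received PBS, one the soy isoflavone daidzein (25 uM), one pig testis extract (PT, 100 ug/ml) and one daidzein together with PT, each for 7 days, and 1 array was hybridised per group. The study's question was the effect of PT on adiponectin. With 1 sample per group a difference between 2 arrays carries no replicate check, and cells of differing maturity in a culture and a different RNA content per cell cannot be told apart.

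Nuclear receptors are transcription factors that are switched by small lipophilic ligands or, in the orphan receptors, have no established ligand. Many bind DNA as heterodimers with a retinoid X receptor and recognise repeats of the hexamer AGGTCA or close relatives of it. Without ligand several of them hold corepressors such as NCOR1 at their targets, and ligand exchanges these for coactivators of the NCOA (p160) family. In the adipocyte lineage retinoic acid, thyroid hormone, vitamin D and fatty acids act through members of this family, and COUP-TFII (Nr2f2) is known as a restraint on differentiation.

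Of the 39 genes, 24 were expressed above background in all 4 groups, and 16 of these 24 were called for neither treatment. Daidzein was accompanied by small shifts in a few members with brighter probes. Nr2f1, Ncoa3, Rarg and Thra fell and Ncoa1 and Vdr rose, each with an additive effect of less than 0.4 in size on the log2 scale. The dim receptors Nr3c2 and Nr6a1 also rose, with the daidzein+PT array alone high. Of these 8 members only Nr2f1, Rarg and Ncoa1 kept their calls under other processing, apart from a fit without the trend of spread on signal. In an additive limma fit of both treatments, 8 of 24 members were called for daidzein at a Benjamini-Hochberg adjusted p under 0.05, where 18.0% of all 19566 genes tested were. The 4 members that rose stand against 9.78% of all genes and the 4 that fell against 8.26%. For PT 1 of 24 members was called, against 4.87% of all genes. This member rose (3.90% of all genes) and none fell (0.966%). The fit had 1 residual degree of freedom and drew its spread from all genes of like signal. A member's own disagreement between arrays therefore had no weight in these p-values. They rest on that pooled spread over 4 arrays and not on replicate samples of a group. Without the trend of spread on signal it called 0 of 24 members for daidzein, with 5 at an unadjusted p under 0.05. Of all 19566 genes it then called 79 higher and 7 lower, with 3462 at an unadjusted p under 0.05.

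Signal is given as the scanner's processed intensity, and differences as log2 ratios after the 75th percentile of each array was subtracted. Feature Extraction's flag for a spot well above background marked 24 members on all 4 arrays (61.5%, against 52.5% of all genes), 2 on 1 array and 13 on none. The 13 members without such signal on any array were Thrb, Rorb, Nr1h4, Nr1i2, Hnf4a, Hnf4g, Nr2e1, Nr2e3, Esrrb, Esrrg, Nr4a3, Nr5a2 and Nr0b1. Their probes read between 2.91 and 17.5, so no difference is given for them. Several are known from liver, gut, retina or brain, such as the bile acid receptor Nr1h4, the xenobiotic receptor Nr1i2 and the hepatocyte factor Hnf4a. Signals of different genes are not compared, since each probe has its own response. The 24 detected members were spread over the signal range, with 11 in the brightest of 3 equal classes of genes, 7 in the middle and 6 in the dimmest. The SD of a difference between 2 arrays, taken from the disagreement of the treatment pairs over all genes, was 0.11 in the brightest class, 0.14 in the middle and 0.33 in the dimmest.

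**Figure D1:**
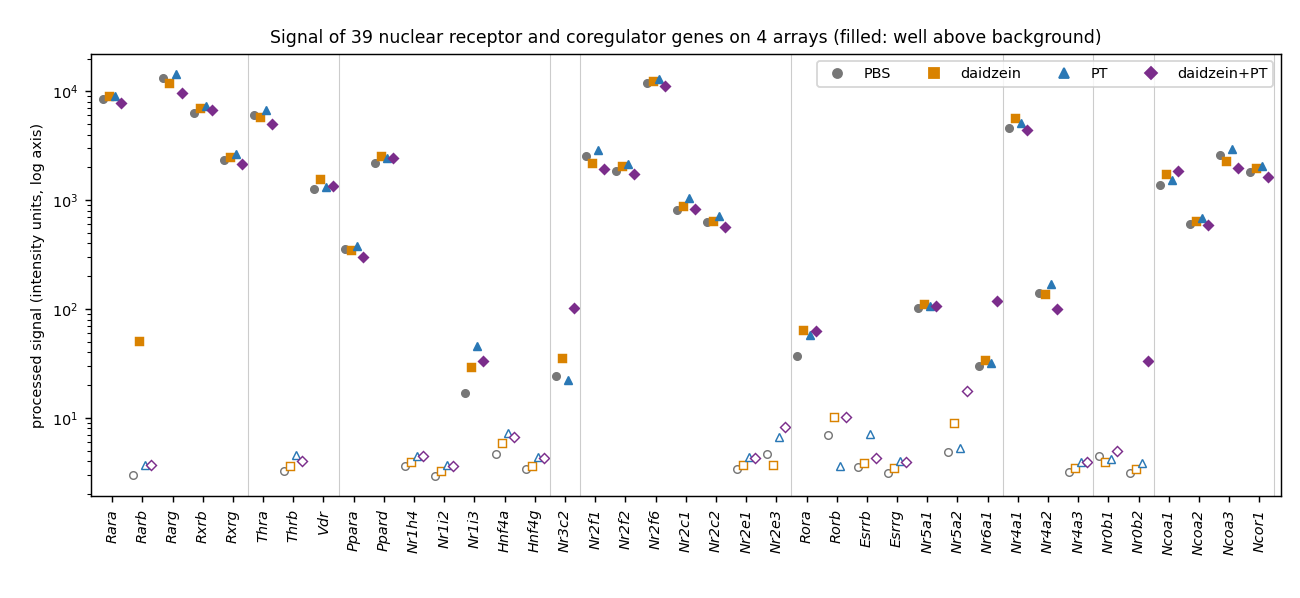
Processed signal (log axis) of the probe that represents each of the 39 genes, with 1 point per array, ordered by receptor role and separated by thin lines. Open symbols are not well above background; 24 genes have 4 filled symbols, Rarb and Nr0b2 have 1, and 13 have none. Heights of different genes are not comparable.

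The retinoid receptors bind all-trans retinoic acid (RARs) or serve as common partners of many receptors (RXRs). Rarg, the RAR gamma gene, read 13167 with PBS, 11836 with daidzein, 14451 with PT and 9722 with daidzein+PT. Both arrays with daidzein were below both arrays without it, also after scaling. The difference was -0.28 for daidzein over PBS and -0.36 for daidzein+PT over PT, and the additive effect was -0.32 (SE 0.077, adjusted p = 0.000429, limma). Rara and Rxrb were called for neither treatment, with differences over PBS between -0.08 and 0.14 in the 3 treated groups. Their signals were 8509, 9052, 9135 and 7761 for Rara and 6346, 6983, 7361 and 6773 for Rxrb, in the order PBS, daidzein, PT, daidzein+PT.

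Rarb, the RAR beta gene and itself a classical retinoic acid target, was well above background on 1 array only. Its probe read 2.98 with PBS, 51.3 with daidzein, 3.72 with PT and 3.66 with daidzein+PT. The daidzein array alone was high, and the other 2 Rarb probes were not well above background on any array. As a bound set by the dimmest spots called above background, the daidzein signal was at least 3.28-fold higher than PBS and at least 2.56-fold higher than daidzein+PT. These bounds hold for the processed signal only. With normexp background correction the log2 differences were smaller, 0.81 for daidzein over PBS and -0.69 for daidzein+PT over daidzein. Of all genes, 447 were well above background on the daidzein array alone.

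Rxrg, the RXR gamma gene, was read by 2 probes that disagreed. The brighter probe (chr1:169569496-169569555, mm9, plus strand) read 2316 with PBS, 2509 with daidzein, 2679 with PT and 2158 with daidzein+PT, and its scaled differences over PBS lay between -0.05 and 0.04. The dimmer probe (chr1:169569624-169569683, mm9, plus strand) read 8.47, 71.5, 16.1 and 124 on the same arrays. Its spot passed the background flag on the daidzein and daidzein+PT arrays and on neither of the others. The bounds on the processed signal were at least 4.57-fold for daidzein over PBS, at least 8.96-fold for daidzein+PT over PBS and at least 8.06-fold for daidzein+PT over PT. With normexp background correction the log2 differences fell below these bounds, at 0.88, 1.55 and 1.47 in the same order. Both probes are assigned to Rxrg by the array's design, and which transcript each one reads was not tested. The exons the probes lie in were not analysed here.

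The promoters of Rarb and Rxrg are printed because Rarb and the dimmer Rxrg probe passed the background flag on the daidzein array but on neither array without daidzein. They run from 250 bases before to 50 bases after the RefSeq start (GRCm38.p6), 5′ to 3′ on the gene's strand. In Rarb (chr14:16575427-16575726, minus strand) capitals mark GGTTCA and AGTTCA as a direct repeat with 5 bases between, known as the retinoic acid response element of this gene. In Rxrg (chr1:167618015-167618314, plus strand, one of the starts RefSeq gives) they mark AAAGGTCA, the NBRE sequence, which contains the hexamer AGGTCA. Another RefSeq promoter of Rxrg (chr1:167598112-167598411, plus strand) held neither sequence and is not printed. Which start gives the transcript read by the dimmer probe was not tested.
Rarb: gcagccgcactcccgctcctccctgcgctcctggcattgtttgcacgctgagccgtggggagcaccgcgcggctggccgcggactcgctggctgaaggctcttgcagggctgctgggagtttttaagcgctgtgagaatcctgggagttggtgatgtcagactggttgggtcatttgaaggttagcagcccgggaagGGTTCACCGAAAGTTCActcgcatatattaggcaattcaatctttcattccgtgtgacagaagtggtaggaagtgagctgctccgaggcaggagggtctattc
Rxrg: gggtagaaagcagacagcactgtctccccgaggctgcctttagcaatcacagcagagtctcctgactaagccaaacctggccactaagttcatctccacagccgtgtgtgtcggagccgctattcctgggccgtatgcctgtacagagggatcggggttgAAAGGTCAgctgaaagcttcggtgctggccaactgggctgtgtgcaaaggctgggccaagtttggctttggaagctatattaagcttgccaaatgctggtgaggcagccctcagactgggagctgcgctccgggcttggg
The direct repeat began 53 bases before the Rarb start and was found in 2 of 32851 promoters, on either strand. The searched letters were those of this gene's own known element, so the match in Rarb and its rarity elsewhere are no test. The Rxrg match began 90 bases before the start, and AAAGGTCA stood in 1.51% of all promoters. The hexamer AGGTCA, searched on both strands, stood in 8 of 51 promoters of the 34 members that RefSeq's table held (15.7%) and in 16.3% of all promoters. A match is a stretch of letters, and binding to it was not measured.

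Among the receptors for thyroid hormone and vitamin D, Thra and Vdr were detected and moved apart with daidzein. Thra, the thyroid hormone receptor alpha gene, read 6124 with PBS, 5846 with daidzein, 6757 with PT and 5008 with daidzein+PT. Scaled, both arrays with daidzein were lower (-0.19 over PBS and -0.22 over PT), and the additive effect was -0.21 (SE 0.073, adjusted p = 0.0294, limma). A dimmer Thra probe gave -0.15 and -0.20 for the same pairs. Vdr, the vitamin D receptor, read 1265, 1558, 1317 and 1358, and was higher with daidzein (0.17 over PBS, 0.26 over PT; additive effect 0.22, SE 0.076, adjusted p = 0.0281, limma). The Thra call was lost with normexp background correction (adjusted p = 0.0779, limma) and with the mean over probes (0.104). That of Vdr was lost with normexp (adjusted p = 0.0659, limma), quantile normalization (0.104), median centring (0.0718) and the mean over probes (0.0794). Thrb was not detected.

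Of the receptors for fatty acids, bile acids and foreign compounds, the 2 PPARs outside the gamma form were called for neither treatment. Ppara read 354 with PBS, 348 with daidzein, 380 with PT and 301 with daidzein+PT, and Ppard 2199, 2546, 2436 and 2439. The dimmer Ppara probes were not well above background on any array. Differences of Ppara in the 5 comparisons lay between -0.18 and -0.03. Those of Ppard lay between -0.02 and 0.22, with an additive daidzein effect of 0.15 that missed the threshold (adjusted p = 0.152, limma). Nr1i3, the constitutive androstane receptor of drug metabolism, was close to background, at 16.9 with PBS, 29.5 with daidzein, 45.7 with PT and 33.0 with daidzein+PT. The PBS array was lowest and PT highest. This made PT over PBS 1.27, daidzein over PBS 0.68 and daidzein+PT over PBS 1.01, whereas PT added 0.33 in the presence of daidzein. With normexp background correction these 4 differences shrank to 0.29, 0.09, 0.28 and 0.19, and a further Nr1i3 probe was not well above background on any array. The additive fit called it for neither treatment (adjusted p = 0.77 for daidzein and 0.21 for PT, limma).

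Nr3c2, the mineralocorticoid receptor, binds aldosterone and glucocorticoids and is known to act in adipocytes. It read 24.0 with PBS, 35.1 with daidzein, 22.1 with PT and 101 with daidzein+PT. The daidzein+PT array alone was high, and the other 3 lay together near background. Daidzein+PT was 2.12 above PBS (4.36-fold), 1.70 above daidzein and 2.41 above PT, against an SD of 0.33 for a difference in this signal class. The single treatments were at 0.42 (daidzein) and -0.28 (PT) over PBS. Its additive daidzein effect was 1.41 (SE 0.29, adjusted p = 1.9e-05, limma), which averages 2 unequal pairs, and the call was lost with normexp background correction (adjusted p = 0.104). Before background subtraction the spot read 93.7, 108, 93.8 and 174 over a local background of 56 to 60, and normexp gave 0.98 for daidzein+PT over PBS.

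The COUP transcription factors and the testicular receptors are orphan receptors that mostly repress and compete for the same DNA repeats. Nr2f1, encoding COUP-TFI, read 2542 with PBS, 2211 with daidzein, 2914 with PT and 1952 with daidzein+PT. Both arrays with daidzein were below both without it. The decrease was nearly equal in the absence and the presence of PT (-0.33 and -0.36), and the additive effect was -0.35 (SE 0.073, adjusted p = 3.06e-05, limma). A dimmer Nr2f1 probe, at 933, 823, 1115 and 730, gave -0.31 and -0.40. Its close relative Nr2f2, encoding COUP-TFII, read 1867, 2069, 2158 and 1725 and differed from PBS by 0.02, 0.04 and -0.07 with daidzein, PT and both. Nr2f6 (11994, 12320, 13043 and 11121) and the testicular receptor genes Nr2c1 (818, 880, 1040 and 831) and Nr2c2 (629, 638, 714 and 564) were called for neither treatment. Within this group the daidzein pairs ranged from -0.33 to 0.02 without PT and from -0.36 to -0.02 with it.

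Of the other orphan receptors Nr6a1, Rora and Nr5a1 were detected, all of them dim. Nr6a1, the germ cell nuclear factor known from gonads and embryos, read 29.9 with PBS, 34.3 with daidzein, 31.7 with PT and 118 with daidzein+PT. Only the daidzein+PT array was high, with the differences 2.03 over PBS, 1.96 over daidzein and 2.11 over PT. Nr6a1 was the 1 member called for PT (additive effect 0.94, SE 0.26, adjusted p = 0.00992, limma) and was also called for daidzein (1.09, SE 0.26, adjusted p = 0.000377). Both calls rest on the daidzein+PT array, since PT alone and daidzein alone were at -0.08 and 0.07 over PBS. With normexp daidzein+PT over PBS was 1.03 and both calls were lost (adjusted p = 0.197 for daidzein and 0.427 for PT). Rora, a receptor of the circadian and lipid programmes, read 37.4, 64.6, 57.9 and 62.5, with PBS lowest and the 3 treated arrays alike. Its differences over PBS were 0.66 with daidzein, 0.47 with PT and 0.79 with both, and neither additive effect passed (adjusted p = 0.142 for daidzein and 0.763 for PT, limma). A further Rora probe was not well above background on any array. Nr5a1, the steroidogenic factor SF-1, read between 103 and 111 and lay between -0.10 and 0.20 in the 5 comparisons.

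Markers of testis germ cells are given beside Nr6a1, since the extract came from testis. Of 5 such markers 2 were well above background on all 4 arrays, and the 5 together summed to 73.4 with PBS, 99.3 with daidzein, 96.5 with PT and 104 with daidzein+PT. Prm1 was at 21.4, 21.1, 35.2 and 31.6 and Prm2 at 22.0, 25.5, 24.4 and 32.9. Sycp3 was well above background on 2 arrays, at 31.8 with daidzein and 22.9 with daidzein+PT, and Ddx4 on none. Their part in the Nr6a1 signal was not tested.

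The NR4A receptors are immediate early genes that bind AAAGGTCA as monomers and answer to cAMP and other signals within minutes. Nr4a1 read 4634 with PBS, 5705 with daidzein, 5149 with PT and 4449 with daidzein+PT. The daidzein array was highest, at 0.17 over PBS, and PT and daidzein+PT were each at -0.01. Nr4a2 read 141, 137, 170 and 99.0. The daidzein+PT array was lowest, at -0.46 from PBS and -0.56 from PT, while a dimmer Nr4a2 probe gave 0.37 and -0.15 for these comparisons. The additive daidzein effect of Nr4a2 was -0.36 (adjusted p = 0.0707, limma) and missed the threshold. Nr4a3 was not well above background on any array (3.16, 3.45, 3.96 and 3.90).

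Their promoters are printed together because the 3 genes share a feature of sequence but not of signal. Capitals mark TGACG on either strand (CGTCA when read on the minus strand), the core of the cAMP response element. They lie at chr15:101266596-101266895 (plus strand) for Nr4a1, chr2:57123954-57124253 (minus strand) for Nr4a2 and chr4:48045055-48045354 (plus strand) for Nr4a3, from RefSeq (GRCm38.p6).
Nr4a1: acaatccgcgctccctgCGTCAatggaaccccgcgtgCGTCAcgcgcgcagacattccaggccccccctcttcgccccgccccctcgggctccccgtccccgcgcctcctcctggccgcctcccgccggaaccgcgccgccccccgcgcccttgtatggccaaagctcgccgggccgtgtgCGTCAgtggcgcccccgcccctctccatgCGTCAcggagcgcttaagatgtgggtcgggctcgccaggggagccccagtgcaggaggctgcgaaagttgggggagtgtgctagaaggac
Nr4a2: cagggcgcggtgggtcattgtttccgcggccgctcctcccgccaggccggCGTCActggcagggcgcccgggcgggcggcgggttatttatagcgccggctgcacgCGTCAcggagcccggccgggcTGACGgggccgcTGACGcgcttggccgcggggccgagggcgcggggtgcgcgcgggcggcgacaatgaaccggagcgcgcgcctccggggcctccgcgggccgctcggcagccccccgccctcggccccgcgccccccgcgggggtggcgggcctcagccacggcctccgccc
Nr4a3: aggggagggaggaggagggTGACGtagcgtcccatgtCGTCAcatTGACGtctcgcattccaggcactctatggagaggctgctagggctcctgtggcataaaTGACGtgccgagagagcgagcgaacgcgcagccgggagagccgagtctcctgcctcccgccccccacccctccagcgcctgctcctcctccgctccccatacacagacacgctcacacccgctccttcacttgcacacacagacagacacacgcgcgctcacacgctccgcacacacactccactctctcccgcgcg
Each of the 3 promoters held 4 matches. They were the only member promoters with 4 or more, a number reached by 76 of 32851 promoters (0.231%). The cut of 4 equals the number these 3 promoters hold, so their passing it is no test. At least 1 match stood in 15 of 51 member promoters (29.4%) and in 20.8% of all. In Nr4a1 the matches began 233, 213, 69 and 40 bases before the start, in Nr4a2 200, 144, 123 and 111, and in Nr4a3 231, 213, 205 and 147. The 3 promoters thus carried the same number of matches, while Nr4a1 and Nr4a2 were detected on all 4 arrays and Nr4a3 on none.

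Nr0b1 and Nr0b2 lack a DNA-binding domain and act by binding other receptors. Nr0b2, encoding SHP, the repressor induced by bile acids, read 3.12 with PBS, 3.35 with daidzein, 3.86 with PT and 33.1 with daidzein+PT. It was well above background on the daidzein+PT array alone, as were 563 genes in all. The bounds on the processed signal were at least 2.39-fold over PBS, at least 2.37-fold over daidzein and at least 2.15-fold over PT. With normexp background correction the log2 differences fell below these bounds, at 0.72, 0.75 and 0.72 in the same order. Nr0b1, encoding DAX-1, was not well above background on any array.

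**Figure D2:**
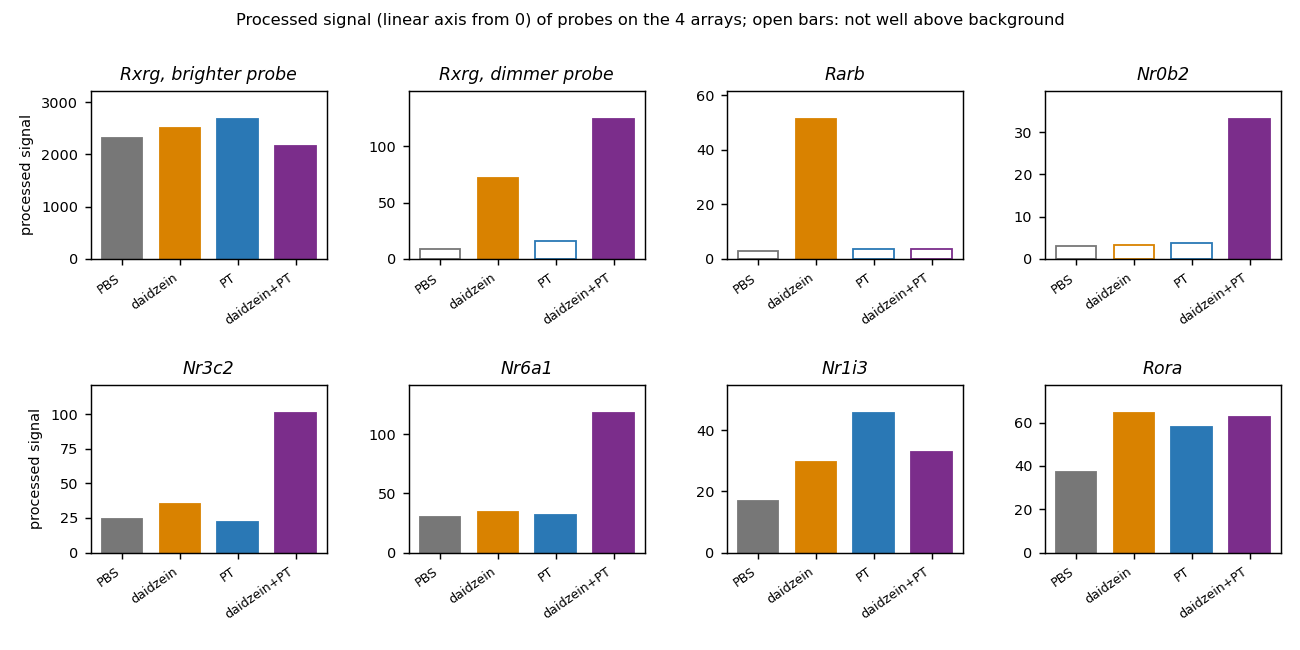
Processed signal on a linear axis from 0 of 8 probes on the 4 arrays, with open bars where a spot was not well above background. The brighter Rxrg probe is level while the dimmer one reads 71.5 and 124 on the arrays with daidzein; Rarb is high on 1 array, and Nr0b2, Nr3c2 and Nr6a1 on the daidzein+PT array.

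All 4 coregulators were detected in every group, and the 3 p160 coactivators differed in direction. Ncoa1 (SRC-1) read 1371 with PBS, 1746 with daidzein, 1534 with PT and 1844 with daidzein+PT. Both arrays with daidzein were above both without it, by 0.22 over PBS and 0.48 over PT (additive effect 0.35, SE 0.075, adjusted p = 3.92e-05, limma). The other 2 Ncoa1 probes gave 0.18 and 0.51, and 0.29 and 0.42, for these pairs. Ncoa3 (SRC-3) went the other way, at 2573, 2309, 2925 and 1967. Its daidzein pairs were -0.28 and -0.36 (additive effect -0.32, SE 0.073, adjusted p = 0.000141, limma). A dim Ncoa3 probe gave -0.10 and -0.59, and with the probes averaged the call was lost (adjusted p = 0.0769). Ncoa2 (607, 649, 682 and 595) lay between -0.03 and 0.05 in the 5 comparisons. The corepressor gene Ncor1 read 1812, 1972, 2039 and 1647, and its differences lay between -0.09 and 0.0038. The other 3 Ncor1 probes differed from PBS by between -0.06 and 0.23.

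**Figure D3:**
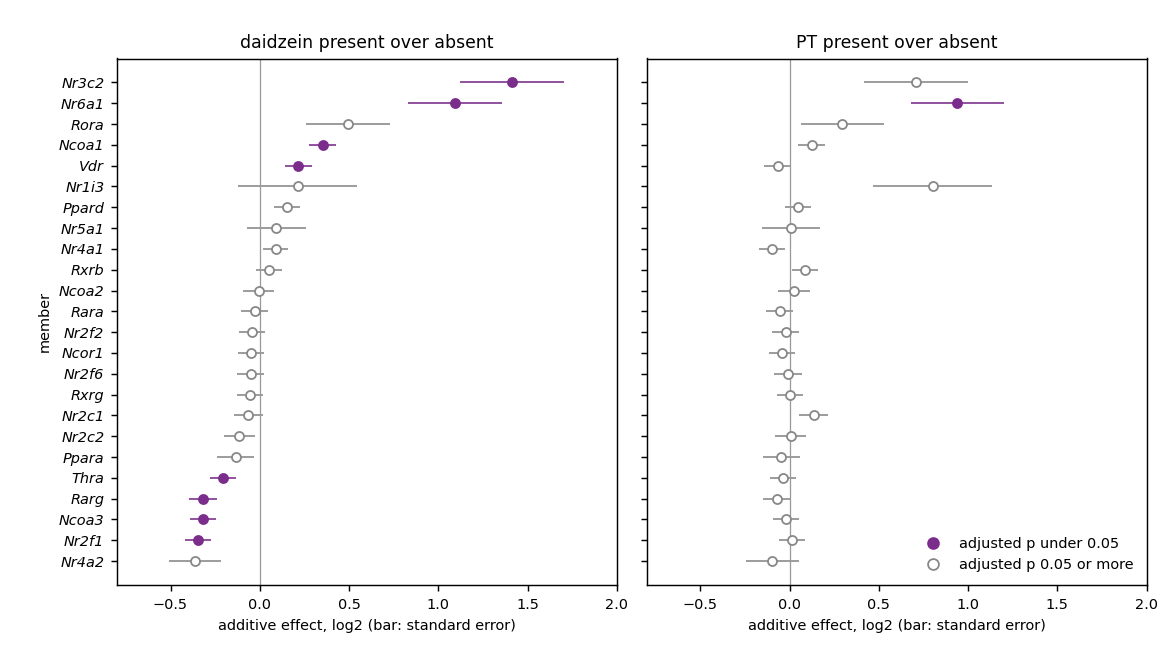
Additive effects of daidzein (left) and PT (right) on the log2 scale for the 24 members well above background on all 4 arrays, with bars for the standard error of the limma fit and members ordered by the daidzein effect. Filled points passed an adjusted p of 0.05, which were 8 members for daidzein and Nr6a1 alone for PT.

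By size, few members passed 2-fold in any comparison, and each that did was in the dimmest signal class. For PT over PBS 1 member was 2-fold higher, Nr1i3 (0.877% of all genes), and 0 were lower (0.0638%). For daidzein over PBS 0 were higher (1.10%) and 0 lower (0.370%). For daidzein+PT over PBS 3 were higher, Nr3c2, Nr6a1 and Nr1i3 (2.52%), and 0 lower (0.553%). For daidzein+PT over daidzein Nr3c2 and Nr6a1 were the 2 higher (1.08%), with 0 lower (0.108%). The same 2 members were higher for daidzein+PT over PT (2.10%), again with 0 lower (0.864%). In the dimmest class the share of all genes at 2-fold either way was 2.08%, 2.33%, 4.75%, 2.99% and 5.50% in the order of these comparisons. Only 6 of the 24 members were in that class. The median of the 24 members was -0.01 for daidzein over PBS, -0.03 for daidzein+PT over PBS and -0.06 for daidzein+PT over PT, where all genes had -0.03, -0.03 and -0.0088. For PT over PBS it was -0.0023 and for daidzein+PT over daidzein -0.0038, where all genes had -0.02 and 0.0087.

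Each treatment can be read in 2 pairs of arrays that share no array. For daidzein 20 of 24 members had the same direction in both pairs (83.3%, against 68.1% of all genes), and for PT 10 of 24 (41.7%, against 55.2%). At 1.5-fold in both pairs there were 0 members for daidzein (1.99% of all genes higher, 0.959% lower) and 0 for PT (0.679% higher, 0.0657% lower). Nr3c2 and Nr6a1 did not reach it, since daidzein over PBS was 0.42 and 0.07. The interaction, the PT difference with daidzein minus that without it, was 1.99 for Nr3c2, 2.04 for Nr6a1 and -0.94 for Nr1i3. These first 2 were the members at 2-fold or more, against 1.36% of all genes and 3.89% in the dimmest class. The other 21 members lay between -0.40 and 0.26. PT and daidzein+PT were in slide row 2 and PBS and daidzein in row 1, so PT and slide row cannot be told apart.

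**Figure D4:**
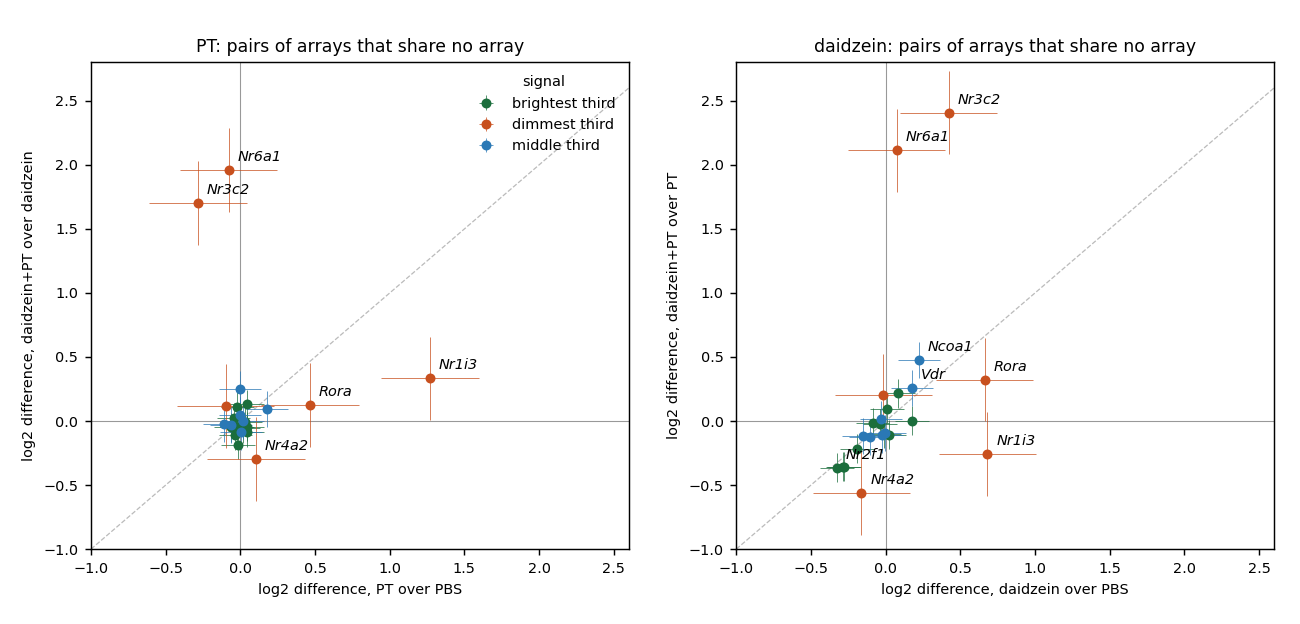
Log2 differences of the 24 members in the 2 array pairs of PT (left) and of daidzein (right), coloured by signal class, with bars of 1 SD of a difference in that class and a dashed line of equality. Nr3c2 and Nr6a1 are at -0.28 to 0.42 on the horizontal axis and at 1.70 to 2.41 on the vertical one; the bright members cluster near the origin, stretched along the diagonal for daidzein.

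Receptors and coregulators outside the 39 were read from a list for comparison. Of 13 such receptors 10 were detected on all 4 arrays, and 0 of these were 2-fold lower with daidzein over PBS. Pparg (1.03) and Nr1h3 (1.30), the adipocyte receptor and an oxysterol receptor, were among those 2-fold higher. Of 25 further coregulators 24 were detected, with 1 higher for daidzein over PBS, the coactivator Ppargc1b (1.25), and 0 lower. Ppargc1b read 23.1, 59.9, 28.4 and 62.4. Nrip1, the RIP140 corepressor of fat cells, was the second coregulator higher in daidzein+PT over PBS (1.15).

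Genes known as targets of the members moved in differing directions. Of 9 retinoic acid targets 6 were detected on all arrays, and 1 of 6 was 2-fold higher for daidzein+PT over PBS, the transglutaminase gene Tgm2 (86.5, 187, 134 and 352), with 0 lower. In daidzein over PBS, the retinoid reductase gene Dhrs3 was at 0.40 and Cyp26b1, which breaks down retinoic acid, at -0.44. Of 15 PPAR alpha and delta targets 11 entered daidzein over PBS, and 0 were 2-fold higher. Pdk4, a brake on glucose oxidation, was at -0.37 over PBS and -0.63 over PT. Of 7 thyroid hormone targets 5 were detected, with 1 of 5 higher for daidzein over PBS. It was Thrsp, the lipogenic Spot 14 gene, at 2.16 over PBS and 2.02 over PT, beside -0.19 and -0.22 for Thra.

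Of 6 vitamin D targets 2 entered daidzein over PBS, with 0 at 2-fold either way. Spp1, encoding osteopontin, was at -0.37 over PBS and -0.79 over PT, beside 0.17 and 0.26 for Vdr. All 6 mineralocorticoid targets were detected, with 1 of 6 higher for daidzein over PBS, Lcn2 (1.58), a lipocalin also known as an inflammatory adipokine. In daidzein+PT over PBS, where Nr3c2 was at 2.12, Lcn2 was at 2.44, Sgk1 at -0.01 and Tsc22d3 at -0.16. Of the targets of the xenobiotic receptors, 4 were found on the array by symbol and 0 entered a comparison. Of 9 immediate early genes 8 were detected, with 0 at 2-fold in any comparison. With daidzein over PBS Fos was at 0.55 and Egr2 at 0.54, beside 0.17 for Nr4a1, and with PT over PBS they were at -0.23 and -0.39.

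The same arrays differed in cell type markers. Of 7 adipocyte markers 6 were detected, and all 6 were 2-fold higher with daidzein over PBS. The 7 together summed to 26072 with PBS, 166020 with daidzein, 64162 with PT and 233430 with daidzein+PT. Lep, encoding leptin, was not well above background on any array. The 7 preadipocyte and fibroblast markers summed to 264260, 228090, 294620 and 212400, with a median of -0.38 for daidzein over PBS. These sums are of signals before scaling, and Dlk1 made up most of them (173190 with PBS). After scaling, PT over PBS had a median of -0.02, with 3 of the 7 markers above 0. For daidzein over PBS the single markers ran from -0.79 (Ly6a) to -0.05 (Col1a1). The called members that fell were at -0.33 (Nr2f1), -0.28 (Ncoa3), -0.28 (Rarg) and -0.19 (Thra). The part of the cell types in the differences of these members, of Ncoa1 and of the dimmer Rxrg probe was not tested. Of macrophage markers 3 of 6 were detected, but Adgre1 and Ptprc were not well above background on any array. Muscle and hepatocyte lists had 1 of 5 detected each, Acta1 and Tat.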

How the data were processed

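Per the labels, RNA was labelled with Cy3 and hybridised to Agilent mouse arrays, 1 for each group. The deposited scanner files hold intensities that Feature Extraction subtracted for background, with its flags, per the file headers (version 10.7.1.1; the submitters' processing notes give 9.5.1.1), on mm9. The deposited series table, an intensity table normalized by the authors, was an alternative only.

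Each array held 62976 spots, with 49.7% to 51.4% of non-control spots well above background and 0 saturated. The number of arrays limits the precision. Control and outlier spots were left out. The processed signal was taken as log2 minus the array's 75th percentile, replicate spots were averaged, and the brightest probe stood for a gene. A gene entered a comparison when well above background on both arrays. Bounds took the brighter of the dim spot and the dimmest spot well above background on that array, per array. The additive fit used limma 3.58.1 (lmFit, eBayes with trend, R 4.3.3) on genes that passed the background flag on 2 or more arrays, with Benjamini-Hochberg adjustment. It was tested on simulated data.

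Values were given for each member at 2-fold in any comparison, at 1.5-fold in both pairs of a treatment or called by limma, with the others as examples by role. Of each list at most 4 genes with the largest mean absolute difference over the pairs of a treatment could be named, and cell type markers were named to check the labels; some genes so selected are not reported here. The members and lists were chosen with earlier results of these data known. Alternatives were normexp background correction, quantile normalization, median centring, the mean over probes, no filter or a stricter filter on dim probes, the series table and no intensity trend.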

Additional observations from a re-analysis of the deposited data

Results flagged for a closer look

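The dimmer Rxrg probe, which the comparisons did not use because another probe of the gene was brighter, carried signal on both arrays with daidzein. It read 71.5 with daidzein and 124 with daidzein+PT, against 8.47 with PBS, and was well above background on these 2 arrays only. The brighter probe was level on the same arrays.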

How the results depend on the processing

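No paired analysis was possible because each group has 1 array and so shares only 1 replicate number; the 2 array pairs of a treatment carry no block. With normexp, members 2-fold higher were 0 for PT over PBS and 1 each for daidzein+PT over PBS and over daidzein. Of all genes 42 of 18805, 284 of 18459 and 61 of 18567 were then higher in these comparisons. With probes averaged, members 2-fold higher were 0 for PT over PBS (210 of 18859 genes) and 1 for daidzein over PBS (222 of 18958 genes). The medians of the members were then 0.022 for daidzein+PT over PBS, -0.0059 for daidzein+PT over PT and 0.047 for the interaction. Without the filter on dim probes, 5 members were higher for daidzein+PT over each of PBS, daidzein and PT (2667, 2072 and 2042 of 34795 genes). For daidzein over PBS 1 was higher (1795 genes). For PT over PBS 1 was lower (884 genes), as was 1 for daidzein+PT over daidzein (1102 genes). In the interaction 6 members were at 2-fold. The medians of the members for daidzein+PT were then 0.21 over PBS, 0.12 over daidzein and 0.095 over PT, with 0.050 for the interaction. For daidzein+PT over PT the median was -0.12 with quantile normalization and -0.11 in the series table.

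In the additive fit, members higher with daidzein numbered 1 with normexp, quantile normalization and the series table, 2 with median centring or averaged probes, 0 without the trend and 6 without the filter. The count over all genes moved too, from 1914 in the main fit. It was 1339, 1234 and 1294 in the first 3 of these settings and 1434 and 1132 in the next 2. It was 79 without the trend and 2516 of 34795 genes without the filter. Members lower numbered 2 with averaged probes and 0 without the trend, where 769 and 7 of all genes were lower, against 1616 in the main fit. Members higher with PT numbered 0 with normexp, quantile normalization, median centring, averaged probes, the series table and no trend. In that order 248, 184, 331, 243, 201 and 15 of all genes were higher, against 763 in the main fit. Without the filter 1 member was lower with PT, as were 386 of 34795 genes. The cause was not tested. Nr2f1, Rarg and Ncoa1 were called for daidzein under every alternative except no trend (adjusted p = 0.204, 0.228 and 0.26, limma). The daidzein effect of Nr1i3 turned from 0.21 to -0.039 with averaged probes. The 2 members higher with daidzein under averaged probes were Ncoa1 and Rxrg. Rxrg was called in this setting only (adjusted p = 4.02e-05, limma), against an adjusted p of 0.72 in the main fit, which used its brighter probe. Its average takes in the dimmer Rxrg probe, which was not well above background on the arrays without daidzein. The other Rxrg probe, an alternative chosen after seeing the data, allows a measured difference only for daidzein+PT over daidzein (0.97). Over all values of single members, 410 kept direction and side of the threshold (or moved by less than the SD), 32 lost the call, 21 moved and 1 reversed. Dim spots near background limit Nr3c2, Nr6a1, Nr1i3 and Rora.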
